A study of Homo sapiens with 6 samples.

Results

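Glycosaminoglycan synthesis and cell-surface proteoglycans were followed through 46 genes in T24, an established cell line from a human bladder carcinoma. The 46 comprise the enzymes that build and sulfate chondroitin, dermatan and heparan sulfate chains, the hyaluronan synthases with 2 hyaluronan-binding proteins, and the syndecan and glypican core proteins. All 46 symbols were found among the 54261 gene rows of the deposited count table. The genes were grouped by their known role, but the set was selected on results of this same contrast, with the changes in CSGALNACT1 and TNFAIP6 already known, so counts of changed members describe the set and support nothing beyond it. RNA was sequenced from 3 libraries of cells infected with a control lentivirus (T24-NC) and 3 of cells infected with a lentivirus carrying a short hairpin RNA against the mitochondrial folate enzyme MTHFD2 (T24-shRNA2). Both groups share the ZsGreen reporter, the puromycin marker and selection with puromycin, and were grown in high-glucose DMEM with serum. The knockdown group represents 1 hairpin in 1 cell line, and the labels do not say whether the numbered replicates were separate cultures, and the p-values then cover only the spread between these 6 libraries, which may be technical.

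Glycosaminoglycans are long sugar chains of repeating disaccharides. Chondroitin and heparan sulfate are built on serines of core proteins through a shared linker of xylose, galactose and glucuronic acid, after which the next sugar added commits the chain to one kind or the other, and sulfotransferases and epimerases pattern it. Hyaluronan has no core protein and no sulfate and is extruded by synthases of the plasma membrane. In the bladder these polymers coat the urothelial surface, and on tumour cells syndecans, glypicans and CD44 serve as coreceptors for growth factors and as matrix receptors.

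The libraries held 17801990 to 19978392 counts. The hairpin's target was lower in every knockdown library: MTHFD2 stood at 185, 188 and 181 CPM (counts scaled to the TMM library size) in control replicates 1 to 3 and at 26.7, 33.6 and 36.7 CPM in knockdown replicates 1 to 3, which gave -2.51 ± 0.13 on the log2 scale (SE; edgeR adjusted p = 1.8e-06). Of 14 urothelial and epithelial markers, 6 were tested, 1 rose and 2 fell, or 50% against 17.3% of all genes tested. The keratins KRT8 (-1.27 ± 0.13) and KRT18 (-0.89 ± 0.13) fell on the log2 scale, UPK1A rose from 6, 8 and 9 to 20, 23 and 37 counts, and KRT7, PPARG and UPK1B did not pass. The summed level of that list, nearly all of it keratin, ran from 2110 to 2518 CPM in the controls and from 1004 to 1323 CPM after knockdown. The markers KRT5, KRT19, EPCAM, CDH1, GATA3, UPK2, UPK3A and TP63 were too low to be tested. Of 14 fibroblast markers, 8 were tested and 5 rose, or 62.5%. COL1A2 was read 24, 32 and 28 times in the controls and 222, 31 and 160 times after knockdown, high in knockdown replicates 1 and 3. In bulk RNA, more cells of a type and more RNA per cell cannot be told apart. The summed level of the fibroblast list ran from 139 to 158 CPM in the controls and from 120 to 170 CPM after knockdown, but most of it was FBLN1, which did not pass (-0.30 ± 0.10). Without FBLN1, a sum added after the values were seen, the list stood at 8.09, 10.7 and 9.08 CPM in the controls and at 52.2, 13.2 and 44.2 CPM in knockdown replicates 1 to 3, above every control in each. The part of these epithelial and fibroblast shifts in the members' changes was not tested. POSTN, PDGFRA, THY1 and FAP were at 0 to 4 counts in the controls and reached 4 to 26 in at least 1 knockdown library. Leukocyte markers summed to at most 3.73 CPM in any library and endothelial markers to at most 3.07 CPM. CDH5, the only endothelial marker tested, fell from 27, 33 and 24 counts to 16, 15 and 8 (-1.18 ± 0.34; edgeR adjusted p = 0.0333).

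After knockdown, genes of all 3 polymer branches moved in both directions. The largest rises were in CSGALNACT1, which starts chondroitin chains, and TNFAIP6, which remodels hyaluronan, and these were the only 2 members that passed the test with a change of at least 2-fold. The largest falls were in CHST3, a chondroitin 6-O-sulfotransferase, in HAS3, the hyaluronan synthase of these cells, in NDST1, which begins heparan sulfation, and in SDC4, the most abundant syndecan per length. Of the 46 members, 39 passed the low-count filter. Of these, 9 were higher and 9 lower in the knockdown libraries at an edgeR adjusted p under 0.05, or 46.2%, where 17.3% of all 13896 genes tested passed, 9.71% higher and 7.58% lower. The contrast that gave these calls is the one on which the set was assembled, so the difference between those shares is not a result about the members. The median log2 fold change was -0.03 over the 39 members and 0.01 over all genes tested. The knockdown libraries lay wholly above the controls for 12 members and wholly below for 11, against 39.1% of all genes tested in either direction.

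**Figure D1:**
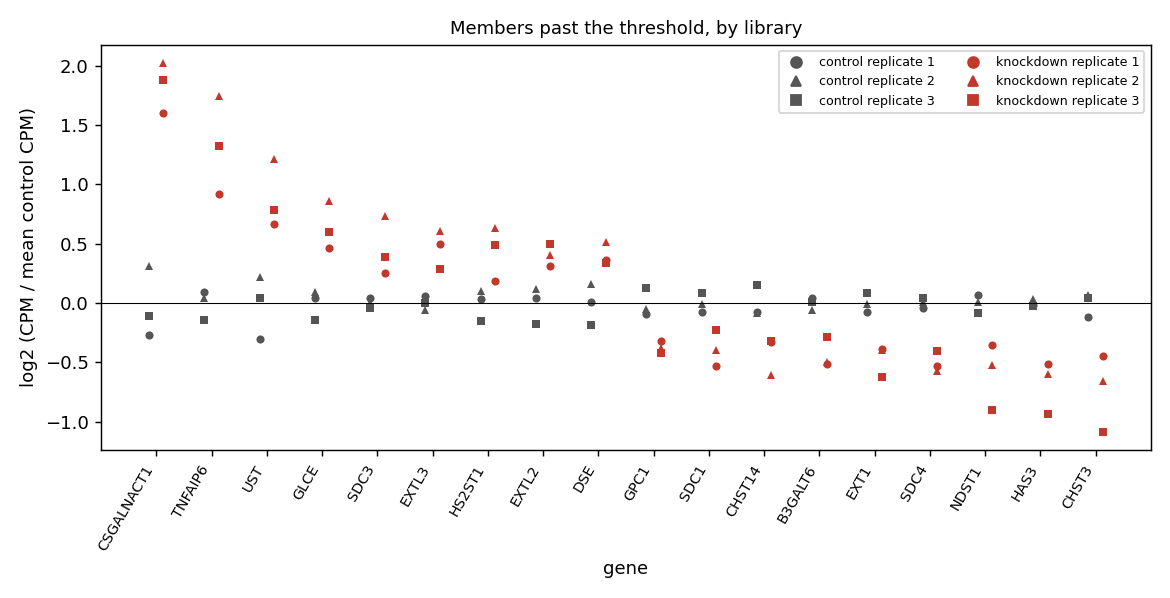
Each point is 1 library's CPM for 1 of the 18 members past the threshold, as log2 of its ratio to the mean of the 3 control libraries (y axis); genes are ordered by fold change (x axis), grey marks are controls and red marks knockdown libraries. Knockdown replicate 2 is the highest knockdown library for 8 of the 9 genes that rose.

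In the plot of called members by library, no control library overlaps a knockdown library in any of the 18 genes. These genes were picked by their p-values in the same libraries, so the separation is no further support for the calls. Among the rises, knockdown replicate 2 was the highest knockdown library for 8 of 9 genes and replicate 3 for 1. Among the falls, knockdown replicate 3 was the lowest for 5 of 9 genes and replicates 1 and 2 for 2 each. MTHFD2 itself was lowest in knockdown replicate 1 and highest in knockdown replicate 3, and a relation of the members to its remaining level was not tested. Knockdown replicate 2 had the lowest sum of fibroblast markers other than FBLN1 among the knockdown libraries, though above the controls. With that library alone against the controls, all 18 members kept their direction. That outcome was set beforehand, since every knockdown library of these genes lay beyond every control, so it does not check the calls. In that fit CSGALNACT1 was at 2.01, TNFAIP6 at 1.74, CHST3 at -0.66, HAS3 at -0.61 and GPC1 at -0.38 on the log2 scale. That fit takes the spread of the single library from the controls. A part of fibroblast transcripts in the calls was not tested by it. Of the 18 calls, 7 held in each of the 6 fits that left out a library: CSGALNACT1, TNFAIP6, UST, GLCE, CHST3, HAS3 and SDC4. The other 11 were lost in 1 to 5 of those fits, as given with each gene. None changed direction, which the same lack of overlap had also set beforehand.

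**Figure D2:**
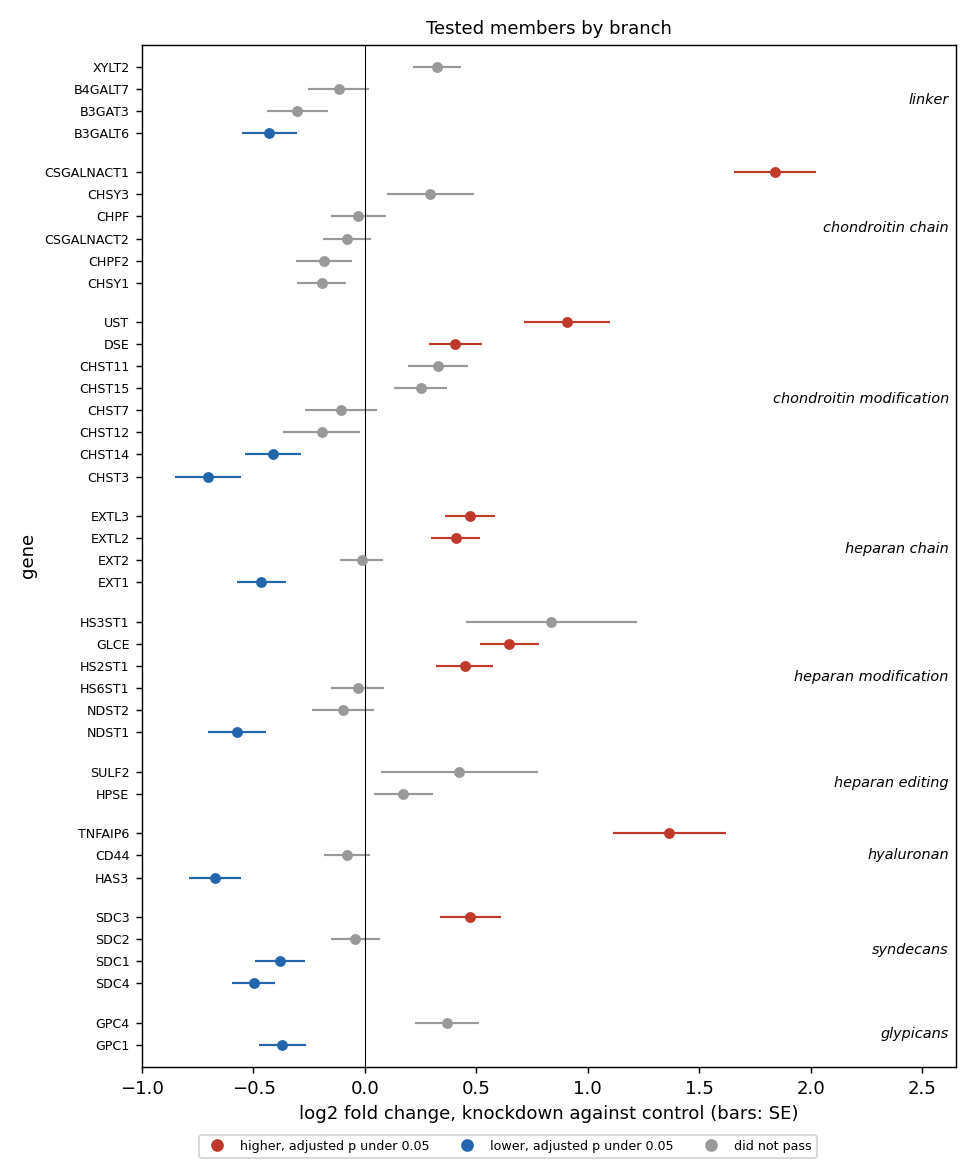
Log2 fold change of knockdown against control (x axis; bars are SE) for the 39 tested members, in rows by branch; red is higher and blue lower at an edgeR adjusted p under 0.05, grey did not pass. CSGALNACT1 (1.84) and TNFAIP6 (1.37) stand furthest to the right and CHST3 (-0.70) furthest to the left.

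In the linker, the tetrasaccharide common to chondroitin and heparan chains, 1 of 4 tested genes passed. B3GALT6, which adds the second galactose, held 20.8, 19.4 and 20.3 CPM in the controls and 14.1, 14.3 and 16.6 CPM after knockdown. All knockdown libraries were below all controls, and B3GALT6 fell by 0.43 ± 0.12 on the log2 scale (SE; edgeR adjusted p = 0.0325). That call held only without knockdown replicate 3 (adjusted p = 0.0218) and was lost without any other library (0.066 to 0.123). XYLT2, the xylosyltransferase that starts the linker here, was at 34.7 ± 1.39 CPM in the controls and 43.4 ± 2.97 CPM after knockdown (SD, n = 3), with every knockdown library above every control, and did not pass (0.32 ± 0.11; edgeR adjusted p = 0.0558). Its paralogue XYLT1 held no count in the controls and 3, 0 and 2 counts in the knockdown libraries, at or under the floor of 3 counts that a count of 0 allows, which equals 0.149 to 0.171 CPM at these depths (counting error only). The galactosyltransferase B4GALT7 (-0.12) and the glucuronosyltransferase B3GAT3 (-0.30), which completes the linker, did not pass.

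Chondroitin and dermatan sulfate genes numbered 14, all tested, of which 3 rose and 2 fell. CSGALNACT1 (GRCh38 chromosome 8, 19404161 to 19758029, minus strand) encodes an N-acetylgalactosaminyltransferase that adds the first chondroitin-specific sugar to the linker. It held 61, 100 and 73 counts in the controls (3.48, 5.2 and 3.88 CPM) and 256, 337 and 287 after knockdown (12.7, 17 and 15.4 CPM). The lowest knockdown library was thus more than double the highest control, and the log2 fold change was 1.84 ± 0.19 (SE), or 3.58-fold (edgeR adjusted p = 0.000191). Its paralogue CSGALNACT2, which does the same reaction, was at 39.1 ± 3.16 CPM in the controls and 37 ± 1.12 CPM after knockdown (SD, n = 3) and did not pass (-0.08 ± 0.11). The polymerising factors CHSY1, CHSY3, CHPF and CHPF2 did not pass either, with log2 fold changes of -0.19 to 0.29. CHPF and CHPF2 share 125 and 64 exonic bases with TMEM198 and SMARCD3 on the opposite strand. All 3 knockdown libraries of CHSY1 lay below the controls (34.7 ± 1.5 and 30.3 ± 2.34 CPM; SD, n = 3; edgeR adjusted p = 0.239).

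Among the sulfotransferases and epimerases of these chains, CHST3, which sulfates the 6 position of N-acetylgalactosamine, fell from 60.9, 69.5 and 68.2 CPM in the controls to 48.6, 42.1 and 31.3 CPM. All knockdown libraries were below the controls, with replicate 3 lowest, and CHST3 fell by 0.70 ± 0.15 on the log2 scale (SE; edgeR adjusted p = 0.00891). The other 6-O-sulfotransferase, CHST7, was at 9 ± 0.251 and 8.37 ± 1.4 CPM (SD, n = 3) and did not pass. UST, which sulfates the 2 position of uronic acid in dermatan and chondroitin chains, rose from 4.62, 6.6 and 5.84 CPM to 9.05, 13.2 and 9.8 CPM, with no overlap between the groups (0.91 ± 0.19; edgeR adjusted p = 0.00962).

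Of the 2 enzymes listed for the dermatan form, 1 rose and 1 fell. DSE, the epimerase that turns glucuronic into iduronic acid, held 35.8, 39.7 and 31.3 CPM in the controls and 45.7, 50.8 and 45.1 CPM after knockdown (0.41 ± 0.12; edgeR adjusted p = 0.0351). CHST14, the dermatan 4-O-sulfotransferase, held 30.9, 30.7 and 36.3 CPM in the controls and 26, 21.5 and 26.2 CPM after knockdown (-0.41 ± 0.13; edgeR adjusted p = 0.0417). Both calls were fragile: DSE passed only without control replicate 2 (adjusted p = 0.0434) or knockdown replicate 3 (0.0369) and otherwise lay at 0.0533 to 0.154, and CHST14 passed only without knockdown replicate 3 (0.0388) and otherwise lay at 0.0531 to 0.169. In GENCODE release 29, DSE shares 589 exonic bases with TSPYL1 on the opposite strand, which held up to 2070 counts and also rose (0.33; edgeR adjusted p = 0.043), and since the strandedness of the counting is not given, reads of the 2 genes cannot be told apart there. The chondroitin 4-O-sulfotransferases CHST11 (0.33) and CHST12 (-0.19) and the 6-O-sulfotransferase CHST15 (0.25), which acts on 4-sulfated chains, did not pass. CHST15 was at 69 ± 3.88 CPM in the controls and 82 ± 11.1 CPM after knockdown (SD, n = 3).

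Heparan sulfate genes numbered 16, of which 12 were tested, 4 rose and 2 fell. EXT1 and EXT2 form the polymerase that lengthens the chain. EXT1 held 47.3, 49.4 and 52.8 CPM in the controls and 38.1, 37.8 and 32.4 CPM after knockdown, all below the controls (-0.46 ± 0.11; edgeR adjusted p = 0.0159). Its call was lost without control replicate 3 (adjusted p = 0.0684). EXT2 was at 91.4 ± 4.42 and 90.6 ± 3.02 CPM (SD, n = 3), a log2 fold change of -0.01 ± 0.10. The EXT-like enzymes act earlier: EXTL3 adds the first N-acetylglucosamine that commits a linker to heparan, and EXTL2 can add an N-acetylglucosamine that ends the chain. EXTL3 rose from 50.4, 46.6 and 48.5 CPM to 68.7, 74 and 59.1 CPM (0.47 ± 0.11; edgeR adjusted p = 0.0156), a call lost without control replicate 1, 2 or 3 (adjusted p = 0.059, 0.0639 and 0.0556). EXTL2 rose from 57.1, 59.9 and 49 CPM to 68.7, 73.2 and 78.2 CPM (0.41 ± 0.11; edgeR adjusted p = 0.0284), a call lost without control replicate 1 or 3 (adjusted p = 0.0909 and 0.131). In both genes every knockdown library was above every control.

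The enzymes that pattern the heparan chain also divided. NDST1, which removes acetyl groups and adds N-sulfate so that later enzymes can act, was the most abundant heparan enzyme per length in the controls. After knockdown EXT2 stood above NDST1 on that scale (17.1 and 15.8 CPM per kb of exon). NDST1 held 236, 226 and 212 CPM in the controls and 176, 156 and 120 CPM after knockdown. The groups did not overlap and knockdown replicate 3 was lowest (-0.57 ± 0.13; edgeR adjusted p = 0.0131). The call was lost without control replicate 1 (adjusted p = 0.0551). NDST2, which has the same activities, was at 25.2 ± 1.24 and 23.6 ± 4.07 CPM (SD, n = 3) and did not pass.

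The next 2 steps of the chain are the C5 epimerisation of glucuronic acid by GLCE and the 2-O-sulfation of the product by HS2ST1. GLCE rose from 21.1, 21.9 and 18.6 CPM to 28.3, 37.2 and 31 CPM, every knockdown library above every control (0.65 ± 0.13; edgeR adjusted p = 0.00803). HS2ST1 rose from 60.3, 63.4 and 53.2 CPM to 67, 91.5 and 82.8 CPM (0.45 ± 0.13; edgeR adjusted p = 0.0337). Knockdown replicate 1 of HS2ST1 was only just above the highest control. Its call held only without that library (adjusted p = 0.014) and otherwise lay at 0.0519 to 0.136. The 6-O-sulfotransferase HS6ST1 was at 21.2 ± 2.01 and 20.7 ± 0.613 CPM (SD, n = 3). The 3-O-sulfotransferase HS3ST1 was at 17, 22 and 10 counts in the controls and 21, 29 and 42 after knockdown and did not pass (0.84 ± 0.38; edgeR adjusted p = 0.149). HS3ST3A1, HS3ST3B1 and HS6ST2 held at most 1 count in any library and were not tested.

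Of the genes that edit finished heparan chains, the heparanase HPSE was at 12.1 ± 1.16 and 13.6 ± 0.293 CPM (SD, n = 3), with the knockdown libraries above the controls, and did not pass (0.17 ± 0.13). The extracellular 6-O-endosulfatase SULF2 held 27, 15 and 42 counts in the controls and 44, 31 and 44 after knockdown and did not pass. SULF2 overlaps 96 exonic bases of NCOA3 on the opposite strand, which held up to 11625 counts, and reads of the 2 genes cannot be told apart there. The other endosulfatase, SULF1, did not pass the low-count filter: it held 8, 1 and 2 counts in the controls and 72, 6 and 11 after knockdown. Most of the SULF1 counts lay in knockdown replicate 1, where COL1A2 was also highest, and a part of fibroblast transcripts in this was not tested.

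Hyaluronan genes numbered 4, of which 3 were tested, 1 rose and 1 fell. HAS3 (GRCh38 chromosome 16, 69105564 to 69118719, plus strand) was the only hyaluronan synthase with more than a few counts: HAS1 held none in any library and HAS2 at most 5. HAS3 held 6012, 6812 and 6407 counts in the controls (343, 354 and 340 CPM) and 4862, 4525 and 3369 after knockdown (242, 228 and 180 CPM). The controls lay close together and every knockdown library was far below them, replicate 3 the furthest. The log2 fold change was -0.67 ± 0.12 (SE), or 1.59-fold lower (edgeR adjusted p = 0.00373). HAS3 shares 365 exonic bases with CHTF8 on the opposite strand, which held up to 4484 counts and did not pass (-0.13; edgeR adjusted p = 0.341).

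TNFAIP6 (chromosome 2, 151357592 to 151380048, plus strand) encodes a secreted protein that binds hyaluronan and moves heavy chains of inter-alpha-inhibitor onto it. Its counts were 34, 36 and 31 in the controls (1.94, 1.87 and 1.65 CPM) and 69, 121 and 85 after knockdown (3.43, 6.1 and 4.55 CPM). The groups were far apart, with knockdown replicate 2 highest, and the log2 fold change was 1.37 ± 0.25 (SE), or 2.58-fold (edgeR adjusted p = 0.00499). The hyaluronan receptor CD44 was the most abundant member per length and stood at 1188, 1172 and 1207 CPM in the controls and 1068, 1135 and 1172 CPM after knockdown. Knockdown replicate 3 of CD44 was level with control replicate 2 to that precision, and the difference did not pass (-0.08 ± 0.10; edgeR adjusted p = 0.614).

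The upstream sequences of HAS3, TNFAIP6 and SDC4 are shown. HAS3 carries the called fall of the hyaluronan branch, TNFAIP6 its called rise, and SDC4 the largest call among the core proteins, a fall. SDC3, the core protein called higher, also had a window, which is not shown. The sequences are the 250 bases before the RefSeq start on GRCh38.p14, and 40 of the 46 members had an entry in that promoter table. CSGALNACT1, EXT1, EXTL3, SULF1, HAS2 and SDC2 had none. The windows are chr16:69107290-69107539 on the plus strand for HAS3, chr2:151357342-151357591 on the plus strand for TNFAIP6 and chr20:45348425-45348674 on the minus strand for SDC4. Capitals mark matches on either strand to the GC box (GGGCGG), the AP-1 site (TGANTCA), the E-box (CACGTG) or the NF-kB consensus, with N any base. The transcript start used in T24 cells was not measured here, and the GENCODE gene start lies at -1976 bases from the RefSeq start for HAS3 and at 0 for TNFAIP6 and SDC4.
HAS3: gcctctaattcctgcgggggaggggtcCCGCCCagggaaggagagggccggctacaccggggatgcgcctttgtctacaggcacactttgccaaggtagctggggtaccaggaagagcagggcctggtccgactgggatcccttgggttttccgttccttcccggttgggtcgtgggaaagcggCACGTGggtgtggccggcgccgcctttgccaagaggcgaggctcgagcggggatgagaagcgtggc
TNFAIP6: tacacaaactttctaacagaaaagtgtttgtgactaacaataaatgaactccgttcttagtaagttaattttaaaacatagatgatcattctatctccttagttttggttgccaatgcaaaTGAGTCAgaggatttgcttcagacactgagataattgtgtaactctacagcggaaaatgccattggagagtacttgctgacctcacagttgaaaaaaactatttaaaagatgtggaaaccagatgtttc
SDC4: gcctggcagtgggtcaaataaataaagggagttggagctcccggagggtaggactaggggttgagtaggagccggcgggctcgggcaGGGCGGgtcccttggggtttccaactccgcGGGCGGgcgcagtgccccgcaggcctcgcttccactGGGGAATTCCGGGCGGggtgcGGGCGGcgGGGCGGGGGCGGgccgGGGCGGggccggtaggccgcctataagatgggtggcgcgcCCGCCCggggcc

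The 3 windows differ in composition. TNFAIP6 has 34.4% G and C and no GC box, HAS3 66% and 1 GC box, and SDC4 73.6% and 8 GC boxes, where the median of 27305 promoter windows of this length was 58% and 42.3% held a GC box. Over the 40 members with a window the median was 68.8%, and 34 of them (85%) held a GC box. TNFAIP6 holds an AP-1 match that starts 129 bases before the start, HAS3 an E-box match at 66 bases, and SDC4 an NF-kB match at 97 bases that adjoins a GC box. Over all promoter windows, 6.6% held the AP-1 motif, 6.49% the E-box and 5.05% the NF-kB consensus. Of the 7 called-higher members with a window, 1 held AP-1, 1 the E-box and 2 NF-kB, and of the 8 called-lower members 2, 2 and 1. A match is a string of letters and not a measured binding site.

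Core proteins of the cell surface numbered 7, of which 6 were tested, 1 rose and 3 fell. Syndecans are transmembrane proteins that carry heparan and, in part, chondroitin chains. SDC4 (chromosome 20, 45325288 to 45348424, minus strand), found in focal adhesions, fell from 137, 142 and 145 CPM in the controls to 97.9, 95.2 and 107 CPM. Each group was tight and the groups were well apart (-0.50 ± 0.10; edgeR adjusted p = 0.00619). SDC1, the main epithelial syndecan, fell from 62.6, 65.6 and 70.2 CPM to 45.7, 50.3 and 56.5 CPM (-0.38 ± 0.11; edgeR adjusted p = 0.0365), a call that held only without knockdown replicate 3 (adjusted p = 0.0187) and otherwise lay at 0.0667 to 0.135. SDC3 rose from 23.2, 22.6 and 21.9 CPM to 26.9, 37.5 and 29.5 CPM, knockdown replicate 2 the highest (0.47 ± 0.14; edgeR adjusted p = 0.0332). The call of SDC3 held only without knockdown replicate 1 (adjusted p = 0.022) or 3 (0.0376) and otherwise lay at 0.0821 to 0.126. SDC2 was at 110 ± 2.18 and 107 ± 13.1 CPM (SD, n = 3) and did not pass (-0.04 ± 0.11).

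Glypicans are anchored to the membrane by a lipid and carry heparan chains. GPC1 held 47.9, 49.3 and 55.7 CPM in the controls and 40.9, 39.2 and 38.1 CPM after knockdown, all below the controls (-0.37 ± 0.11; edgeR adjusted p = 0.034). Its call held only without knockdown replicate 1 (adjusted p = 0.0441) and otherwise lay at 0.0502 to 0.148. GPC4 was at 16.5 ± 1.28 and 21.2 ± 3.41 CPM (SD, n = 3), with overlapping groups, and did not pass (0.37 ± 0.14; edgeR adjusted p = 0.0945). GPC6 held 3 counts in knockdown replicate 3 and none elsewhere.

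**Figure D3:**
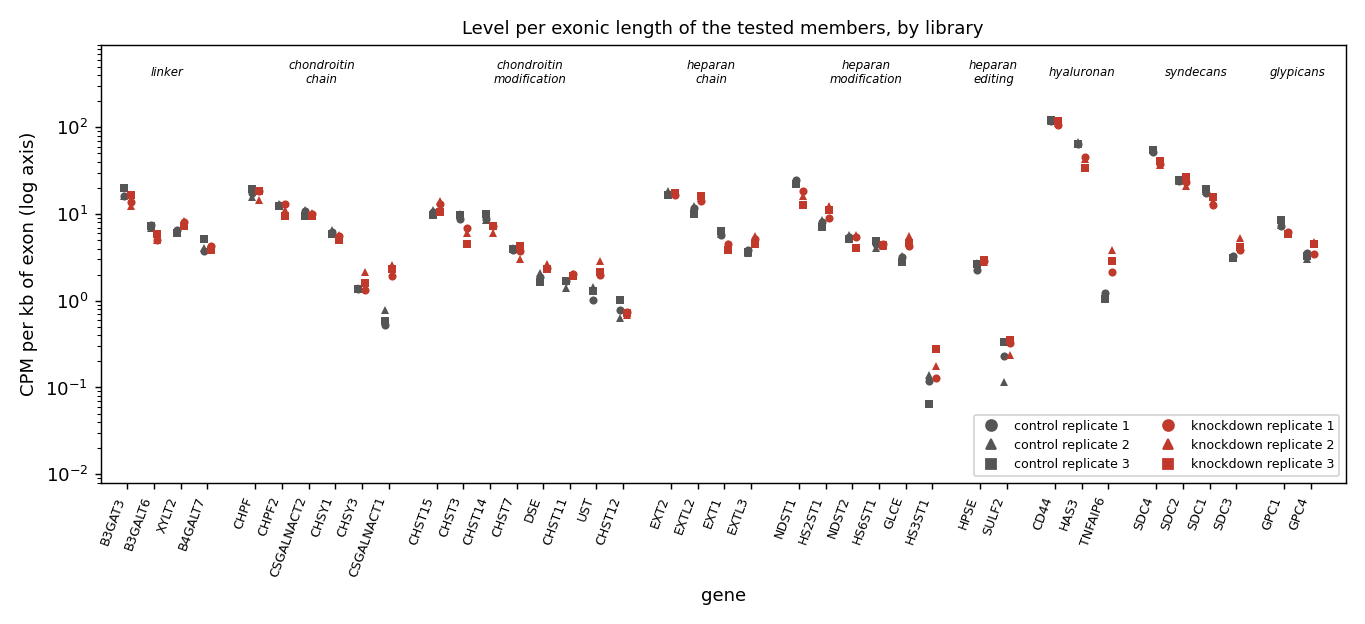
CPM per kb of exon (y axis, log scale) of the 39 tested members in each library, grouped by branch (x axis); grey marks are the 3 controls and red marks the 3 knockdown libraries. CD44, HAS3 and SDC4 have the highest levels, and CSGALNACT1, at 0.636 in the controls and 2.28 after knockdown, is among the lowest.

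Levels can be compared between genes per length, here as CPM per kb of the union of all annotated exons, a length that counts exons the cells may not use. On that scale CD44 led in the controls at 119, followed by HAS3 at 65.4, SDC4 at 54.1, SDC2 at 24.3, NDST1 at 23.5 and SDC1 at 18.4. After knockdown the levels per kb were 112 for CD44, 41 for HAS3, 38.3 for SDC4, 23.6 for SDC2, 15.8 for NDST1 and 14.1 for SDC1. Of these, HAS3, SDC4, NDST1 and SDC1 were called lower, and CD44 and SDC2 did not pass. The next in rank in the controls, B3GAT3, CHPF, EXT2 and CHPF2, did not pass, and EXTL2 after them was called higher. A relation of level to direction was not tested. The 2 members that rose most were scarce: CSGALNACT1 went from 0.636 to 2.28 and TNFAIP6 from 1.15 to 2.97 CPM per kb.

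**Figure D4:**
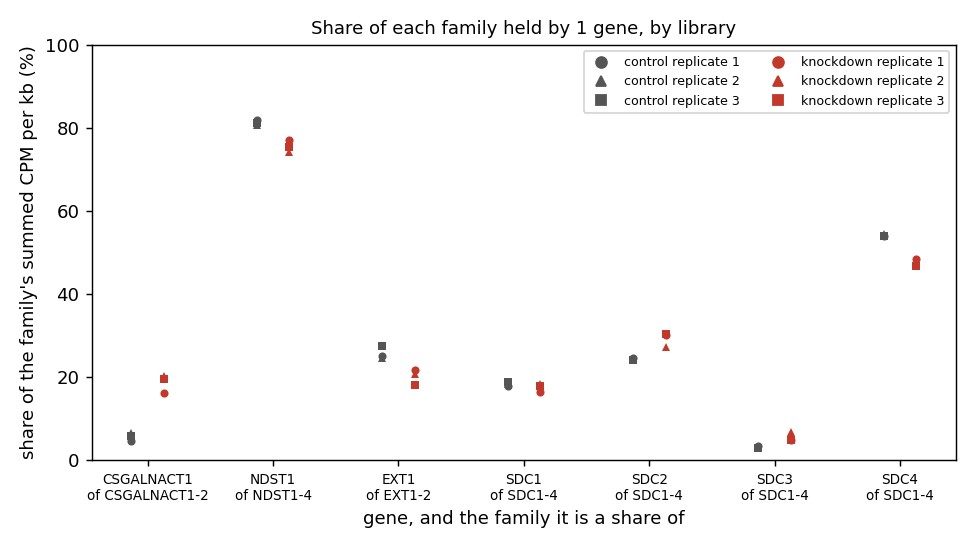
Share of a family's summed CPM per kb held by 1 gene (y axis, %) in each library, for CSGALNACT1, NDST1, EXT1 and the 4 syndecans (x axis); grey marks are controls and red marks knockdown libraries. The CSGALNACT1 share runs from 4.63 to 6.67% in the controls and from 16.3 to 20.2% after knockdown.

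Shares within a family of like enzymes, on the same per-length scale, restate these levels without the scaling between libraries. CSGALNACT1 held 4.63, 6.67 and 5.83% of the 2 chain-starting transferases in the controls and 16.3, 20.2 and 19.6% after knockdown, so that CSGALNACT2 was the major transcript in every library. NDST1 held 81.2 ± 0.596% of the 4 NDST genes in the controls and 75.6 ± 1.54% after knockdown (SD, n = 3). EXT1 held 25.7 ± 1.61% of the pair with EXT2 in the controls and 20.2 ± 1.85% after knockdown (SD, n = 3). Of the syndecans, SDC4 held 54.1 ± 0.257% in the controls and 47.6 ± 0.882% after knockdown, SDC2 24.3 ± 0.34% and 29.3 ± 1.75%, and SDC3 3.2 ± 0.188% and 5.55 ± 1.2% (SD, n = 3). The SDC1 share was 18.4 ± 0.511% and 17.6 ± 0.964% (SD, n = 3), with overlapping groups.

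Other genes of the pathway were read from 5 lists of 116 genes, of which 71 were tested, 8 rose and 9 fell, or 23.9% against 17.3% of all genes. Their median log2 fold change was 0.07. Of 24 genes that supply activated sugars and sulfate, 1 rose and 4 fell, or 20.8%. PXYLP1, the phosphatase that releases the linker's xylose from phosphate so that the chain can grow, rose from 3.99, 4.16 and 3.98 CPM to 6.66, 9.53 and 9 CPM (1.05 ± 0.18; edgeR adjusted p = 0.00373). The falls were in UAP1, which makes UDP-N-acetylglucosamine, from 108, 120 and 121 to 80.7, 73.6 and 86 CPM (-0.54 ± 0.10; edgeR adjusted p = 0.00604), in the UDP-galactose transporter SLC35A2 (-0.47 ± 0.12), in GFPT2 (-0.43 ± 0.12), which starts the hexosamine route, and in PGM3 (-0.32 ± 0.10), which acts just before UAP1. GFPT1 (-0.17) and GNPNAT1 (0.14), of the same route, did not pass. With 1 library left out, PGM3 passed only without knockdown replicate 1 (adjusted p up to 0.165 otherwise) and GFPT2 only without knockdown replicate 1 or 3 (up to 0.0789). SLC35A2 passed only without control replicate 2 or knockdown replicate 1 or 3 (up to 0.0948 otherwise). UGDH, which makes the UDP-glucuronic acid used by all 3 branches, was at 79.7 and 83.1 CPM and did not pass (0.06 ± 0.10).

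Of 24 further chain enzymes, 8 were tested and 2 rose, or 25% against 17.3% of all genes tested. HS3ST5, a heparan 3-O-sulfotransferase, held 10, 12 and 17 counts in the controls and 49, 33 and 42 after knockdown (1.59 ± 0.32; edgeR adjusted p = 0.00742). With knockdown replicate 2 alone its adjusted p was 0.0707. B3GNT2, which extends poly-N-acetyllactosamine, rose by 0.40 ± 0.11 on the log2 scale (edgeR adjusted p = 0.0255), a call lost without any 1 of the 3 controls (adjusted p up to 0.106). Of 21 genes of breakdown, 20 were tested, 1 rose and 2 fell, or 15%, which is near the share over all genes. The falls were in the lysosomal sulfatases SGSH (-0.56 ± 0.14), for heparan, and GALNS (-0.49 ± 0.11), for chondroitin and keratan. CEMIP, which starts hyaluronan breakdown outside the lysosome, rose from 2, 6 and 3 counts to 82, 13 and 28 (3.36 ± 0.70; edgeR adjusted p = 0.00893), most in knockdown replicate 1. Against the controls, knockdown replicate 2 alone gave 1.69 on the log2 scale (edgeR adjusted p = 0.122). The call of SGSH was lost without control replicate 1 or 3 (adjusted p = 0.0565 and 0.0607).

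**Figure D5:**
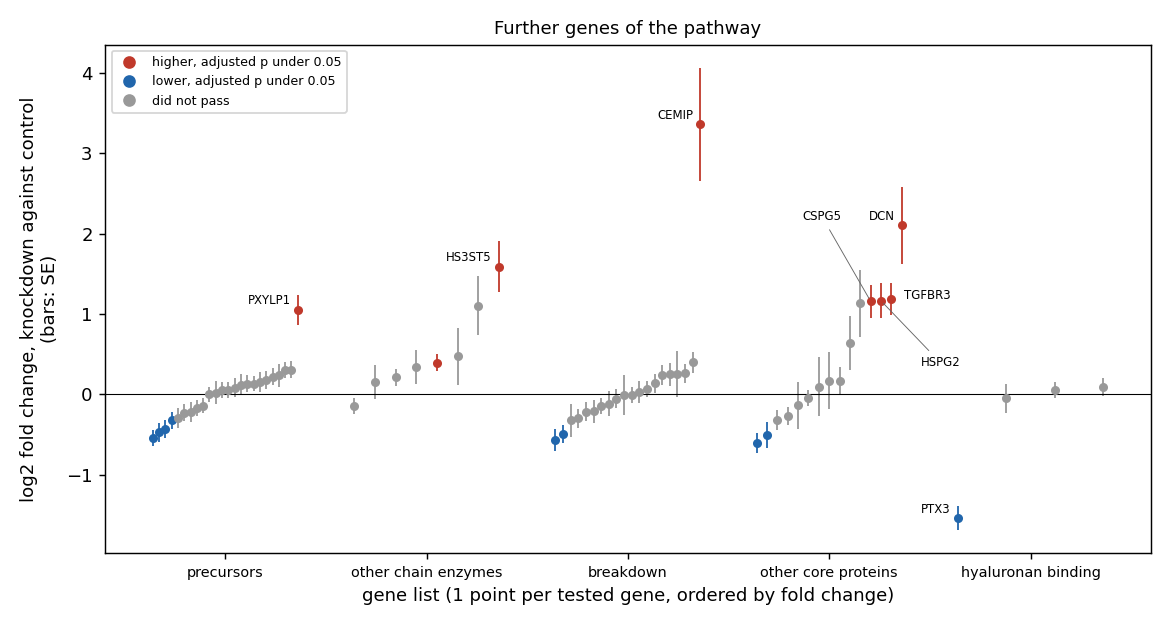
Log2 fold change of knockdown against control (y axis; bars are SE) for the 71 tested further genes in 5 lists (x axis); red is higher and blue lower at an edgeR adjusted p under 0.05, grey did not pass, and called genes beyond 0.9 are named. Among breakdown genes CEMIP (3.36) is called higher and SGSH (-0.56) and GALNS (-0.49) lower, and PTX3 (-1.54) is the lowest of all.

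Of 30 other proteoglycan core proteins, 15 were tested, 4 rose and 2 fell, or 40% against 17.3% of all genes tested. TGFBR3, the TGF-beta coreceptor betaglycan, rose from 9.52, 8.84 and 6.11 CPM to 14.9, 22.9 and 17.7 CPM (1.18 ± 0.20; edgeR adjusted p = 0.00294). The basement membrane proteoglycan HSPG2 (1.16 ± 0.22) and the chondroitin proteoglycan CSPG5 (1.16 ± 0.21) rose as well. The fourth, the matrix proteoglycan DCN, also stood on the fibroblast list and held 67, 22 and 74 counts after knockdown against 9, 19 and 8 in the controls. With knockdown replicate 2 alone DCN was at 0.77 (adjusted p = 0.335), and without control replicate 3 its adjusted p was 0.0536. The intracellular proteoglycan SRGN fell from 53.7, 54.8 and 51.7 CPM to 34, 30 and 41.5 CPM (-0.60 ± 0.13; edgeR adjusted p = 0.00906), and the semaphorin and VEGF coreceptor NRP1 fell by 0.50 ± 0.16 on the log2 scale, with overlapping groups and a call that held only without control replicate 3 or knockdown replicate 1 (adjusted p up to 0.146 otherwise). Of 17 other genes listed for hyaluronan binding or hyaluronan matrices, 4 were tested and 1 passed, or 25%. PTX3, a pentraxin that joins TNFAIP6 in hyaluronan matrices, held 13.5, 13.7 and 15.6 CPM in the controls and 4.62, 4.54 and 5.57 CPM after knockdown (-1.54 ± 0.15; edgeR adjusted p = 0.000191). PTX3 thus fell where TNFAIP6 rose.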

How the data were processed

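RNA sequencing counts of 6 T24 libraries were used, grouped by their titles into 3 control and 3 knockdown samples. Per the submitters' processing notes, HISAT2 2.0.4 and GRCh38 were used; the counter, its annotation and its strandedness were not given in the sources used here. Raw counts for each gene symbol were deposited by the authors as whole numbers, without normalization. The members and gene lists were chosen with earlier results of these data known.

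Genes were kept by filterByExpr (13896 of 54261), scaled by TMM and tested with edgeR 4.0.16 (quasi-likelihood F test, robust, R 4.3.3), with Benjamini-Hochberg adjustment over all genes tested and a threshold of 0.05. The SE is the size of the log2 fold change divided by the square root of F. Members past the threshold are given by library, and the rule took from each further list up to 4 called genes by size of change, both directions present; PGM3, GFPT1, GNPNAT1, UGDH, NRP1 and one of HSPG2 and CSPG5 were named beyond that rule after their values were seen. The rule planned protein sequences; promoter windows were printed instead, chosen after the values were seen. Positions, exonic lengths and overlaps came from GENCODE release 29 (GRCh38), promoter windows from RefSeq (GRCh38.p14). The fit was first tested on simulated data. Replicates of a group differed beyond sampling noise in every pair (chi-square divided by its degrees of freedom, 2.65 to 34.6). Alternatives were RLE scaling, DESeq2 1.42.0, other filters, the replicate number as a block, left-out libraries and a threshold of 0.01. Floors cover counting error only.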

Additional observations from a re-analysis of the deposited data

How the results depend on the processing

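All 18 member calls kept their direction and passed with RLE scaling, DESeq2, no low-count filter, a filter of 1 CPM in 3 libraries and the replicate block. At a threshold of 0.01, 4 members were higher, 3 lower and 749 genes changed. Leaving out 1 library gave 4 to 10 members higher, 4 to 9 lower and 986 to 2645 genes changed: 4 and 4 members without control replicate 1 (1003 genes), 4 and 4 without control replicate 3 (986), 6 and 5 without control replicate 2 (1679), 9 and 6 without knockdown replicate 1 (2607), 7 and 5 without knockdown replicate 2 (1469), and 10 and 9 without knockdown replicate 3 (2645). These fits have fewer samples. With knockdown replicate 2 alone, 13 members were higher, 9 lower and 4432 genes changed.

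With the replicate block 5062 genes passed, 13 members higher and 10 lower. Same-numbered libraries deviated together for replicates 2 and 3 but not for replicate 1 (correlations of -0.02, 0.30 and 0.35 for replicates 1, 2 and 3). Pairs with unlike numbers ran from -0.40 (control replicate 3 with knockdown replicate 2) to 0.16 (control replicate 1 with knockdown replicate 2). Deviations were taken from the mean of each group of 3, so these correlations are not independent of each other. The labels do not say whether a number marks a shared batch, and this was not tested. No setting moved the median of all genes by over 0.1. Of the 7 untested members, XYLT1, HS3ST3A1, HS3ST3B1, HS6ST2, HAS2 and GPC6 were at or under the floor of 3 counts in most libraries. A fall or a small rise in them was thus not detectable at this depth. The call of PGM3 was also lost with no low-count filter (adjusted p = 0.0613).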
